A study of Mus musculus with 2 samples.

Results

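The enzymes that crosslink collagen and elastin, or that prepare collagen for crosslinking, were followed in single cells of fibrotic mouse liver. They comprised the lysyl oxidases Lox, Loxl1, Loxl2 and Loxl3, the lysyl hydroxylases Plod1, Plod2 and Plod3, and transglutaminase 2 (Tgm2). These 8 genes were found by symbol among the 31054 features counted, each under 1 identifier. They were listed by name, with no threshold on their values, when earlier results of these libraries were known.

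The cells were a hepatic stellate cell (HSC) preparation from livers of male mice, made by digestion and a density gradient, and sequenced as 2 libraries, 1 per genotype. All mice received carbon tetrachloride (CCl4), a hepatotoxin that causes fibrosis, for 4 weeks, together with tamoxifen and diphtheria toxin. Both genotypes carried p16-CreERT2 and the reporter R26-CAG-LSL-RSR-tdTomato-2A-DTR, in which 2 stop cassettes block the toxin receptor. The p16-Alb-LRTD mice also carried Alb-DreERT2, whose recombinase is driven by the albumin promoter of hepatocytes, so that hepatocytes with high p16 expression could be labelled and eliminated. The p16-LRTD mice lacked Alb-DreERT2, kept 1 stop cassette in place and were the controls. The age of the mice and the number pooled per library are not given in the sources used here, and hepatocytes were not isolated. The question was whether the crosslinking enzymes differed between the libraries within each cell class.

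Fibrillar collagen is modified inside the cell and crosslinked outside it. In the endoplasmic reticulum, lysyl hydroxylases convert lysines of the collagen chains to hydroxylysines, and after secretion the copper-dependent lysyl oxidases turn lysines and hydroxylysines into aldehydes that condense into crosslinks between molecules, while Tgm2 joins glutamine and lysine side chains of matrix proteins directly. In the injured liver, HSCs are the main source of fibrillar collagen, and crosslinked scar is known to be stiffer and slower to resolve.

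The lysyl oxidases share a catalytic domain around a histidine-rich copper-binding site, and the bases that encode it are shown to let a reader see how close the family members are where they share a function and how they can still be told apart in counts. Each line holds 27 bases of spliced coding sequence from GENCODE vM21 transcripts (GRCm38), read 5′ to 3′ on the gene's strand. Capitals mark the 10 positions at which the 3 sequences are not all the same.
Loxl1: tggcaTAGCtgTcaCCAAcaTtaccac
Loxl2: tggcaCGACtgCcaCAGGcaCtaccac
Loxl3: tggcaTGAGtgTcaTGGGcaTtaccac
The stretch crosses an exon junction in each gene, from exon 3 to 4 in Loxl1 (chr9:58293720-58294375, minus strand) and from exon 10 to 11 in Loxl2 (chr14:69682322-69689037, plus strand) and Loxl3 (chr6:83050001-83050125, plus strand). The other 17 positions were identical, and 6 of the 10 that differed were the last base of a codon. The reads counted here came from the 3′ ends of transcripts. In the last 1000 bases, none of the 970 stretches of 31 bases occurred in transcripts of another gene for 7 of the members, while 137 of 970 did for Loxl2. Loxl3, Plod3 and Tgm2 overlap Htra2, Znhit1 and Rprd1b on the opposite strand, and whether reads were counted by strand is not given in the sources used here.

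Of 11149 and 8806 barcodes in p16-LRTD and p16-Alb-LRTD, 9004 and 7416 passed the filters, with median depths of 17177 and 18273 unique molecular identifiers (UMIs, each 1 captured transcript). Cells were placed in 3 classes by summed marker UMIs, leaving out those that passed more than 1 gate, 245 and 221. The stellate class (Lrat, Ecm1, Hgf, Reln) held 7852 and 6621 cells, the endothelial class (Kdr, Stab2, Ptprb) 430 and 283, and the Kupffer class (Clec4f, Cd5l, Vsig4, Csf1r), the resident macrophages of the liver, 283 and 178. For these 3 cell types, markers outside the gates summed highest in the class of that name. The sum of 8 further stellate markers was 9575 and 8098 CPM in the stellate class against 115 to 244 CPM in the other classes. The 7 further endothelial markers summed to 7120.2 and 6788 CPM in the endothelial class and 23.8 to 757 CPM elsewhere, and the 7 Kupffer markers to 12162 and 13402 CPM in the Kupffer class and 33.6 to 148 CPM elsewhere. A list of 5 markers of monocytes and infiltrating macrophages summed to 334 and 356 CPM in the Kupffer class, with Ly6c2 at 0 in p16-Alb-LRTD. Whether that class held resident macrophages alone was not tested. The libraries shared 95 barcodes, of which 18 were kept in both.

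With 1 library per genotype there was no replicate and no test. Levels are CPM, a gene's UMIs scaled to a common total over all UMIs of a class, and differences are log2 ratios of p16-Alb-LRTD over p16-LRTD. All 95% intervals cover counting error only, not the spread between mice. A gene was called when its mean level over both libraries was at least 5 CPM and its ratio at least 1.5-fold in either direction. Where a pair of values is given without names, p16-LRTD comes first. A lower level in a class can come from fewer cells with a gene's UMIs or from fewer UMIs in those cells, and both are given for stellate cells.

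In stellate cells, the lysyl oxidases Lox and Loxl1 were lower in p16-Alb-LRTD by more than 1.5-fold, whereas Loxl2 and Loxl3 were lower by less and the lysyl hydroxylases and Tgm2 had log2 ratios between -0.20 and -0.085. All 8 members passed 5 CPM, 2 were called lower and 0 higher. Over all 10179 genes that passed, 3.05% were called lower and 3.03% higher. The median log2 ratio of the members was -0.28, and that of all genes was -0.048.

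Lox (ENSMUSG00000024529), the founding lysyl oxidase, which acts on collagen and elastin, reached 20.6 CPM (19.9 to 21.4) in the control stellate cells and 9.24 CPM (8.71 to 9.79) in those of p16-Alb-LRTD, from 2942 and 1156 UMIs. Its log2 ratio was -1.16 (-1.26 to -1.06), and 0.698% of all genes had a lower ratio. Loxl1 (ENSMUSG00000032334, chr9:58287738-58313186), which is tied to elastic fibre assembly, was at 87.1 CPM (85.6 to 88.6) and 40.3 CPM (39.1 to 41.4), a log2 ratio of -1.11 (-1.16 to -1.07). The intervals of the libraries did not overlap for either gene, and both ratios were near the lower end of those of all genes. A difference in the share of cells with a UMI went with both. With every cell thinned to 5000 UMIs, 6.70% (6.16 to 7.28) and 4.13% (3.66 to 4.64) of stellate cells had a Lox UMI. For Loxl1 these shares were 23.5% (22.6 to 24.5) and 14.4% (13.5 to 15.2). Free RNA can place UMIs in cells that do not express a gene, so the Kupffer class serves as the background. There, 0.719% of p16-LRTD cells had a Lox UMI, and 0 of 177 did in p16-Alb-LRTD, which allows a share of up to 2.06%. The shares for Loxl1 in Kupffer cells were 1.44% and 1.13%. The median depths before thinning were 19514 and 25101.5 UMIs in Kupffer cells against 17024.5 and 18136 UMIs in stellate cells, and the stellate shares lay above this background in both libraries. Without thinning, 17.6% and 11.7% of stellate cells had a Lox UMI and 45.0% and 33.1% a Loxl1 UMI. The cells with a UMI held on average 2.13 and 1.49 Lox UMIs and 3.52 and 2.30 Loxl1 UMIs, without thinning, so that both quantities were lower in p16-Alb-LRTD. The same average was 3.105 and 2.57 UMIs for Loxl2, 2.68 and 2.43 for Plod2 and 5.28 and 5.12 for Tgm2, and between 1.33 and 2.48 for Loxl3, Plod1 and Plod3.

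Loxl2 (ENSMUSG00000034205, chr14:69609068-69695834), a scavenger-receptor-domain lysyl oxidase studied as a target in fibrosis, was at 140.4 CPM (138 to 142) and 107 CPM (106 to 109) in stellate cells. Its log2 ratio of -0.39 (-0.42 to -0.35) did not reach the fold used for a call. Loxl3 (ENSMUSG00000000693, chr6:83034173-83052562), which has the same kind of domain, was at 42.2 CPM (41.1 to 43.2) and 33.1 CPM (32.1 to 34.1), a log2 ratio of -0.35 (-0.41 to -0.29). The order of the differences among the oxidases was thus Lox and Loxl1, whose intervals overlapped, then Loxl2 and Loxl3, whose intervals also overlapped. After thinning, 46.7% and 38.9% of stellate cells had a Loxl2 UMI and 19.1% and 15.5% a Loxl3 UMI, a lower share in p16-Alb-LRTD for each.

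The lysyl hydroxylases differed little in stellate cells. Plod1 (ENSMUSG00000019055, chr4:147909753-147936767), which hydroxylates lysines in the helical part of collagen, was at 109 CPM (107 to 110.3) and 95.1 CPM (93.4 to 96.8), a log2 ratio of -0.19 (-0.23 to -0.16). Plod2 (ENSMUSG00000032374, chr9:92542223-92608428), which acts on the collagen ends that take part in crosslinks, was at 98.0 CPM (96.4 to 99.7) and 92.4 CPM (90.8 to 94.1), a log2 ratio of -0.085 (-0.12 to -0.049). The Plod2 ratio was not far from the median of all genes, and 42.4% of genes had a lower one. It was 0.030 as a mean over cells in which each cell weighs the same, so its direction depends on how cells are weighted. Plod3 (ENSMUSG00000004846, chr5:136987019-136996648), which also adds glucose to hydroxylysine that bears galactose, was at 32.1 CPM (31.2 to 33.0) and 27.9 CPM (27.0 to 28.9), a log2 ratio of -0.20 (-0.26 to -0.14). The thinned share of cells with a Plod2 UMI was 33.7% and 34.3%, with overlapping intervals, and those for Plod1 (40.5% and 37.4%) and Plod3 (14.8% and 12.6%) were lower in p16-Alb-LRTD.

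Tgm2 (ENSMUSG00000037820, chr2:158116402-158146436) was at 279 CPM (276 to 281) and 261 CPM (258 to 263) in stellate cells, a log2 ratio of -0.096 (-0.12 to -0.075). Its thinned shares were 70.9% (69.9 to 71.9) and 69.8% (68.6 to 70.9), with overlapping intervals. All 8 log2 ratios were negative with intervals below 0, but the median gene was also below 0, and scaling by trimmed mean of M-values (TMM) or by the median of ratios raised every stellate ratio by 0.044 or 0.047.

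**Figure D1:**
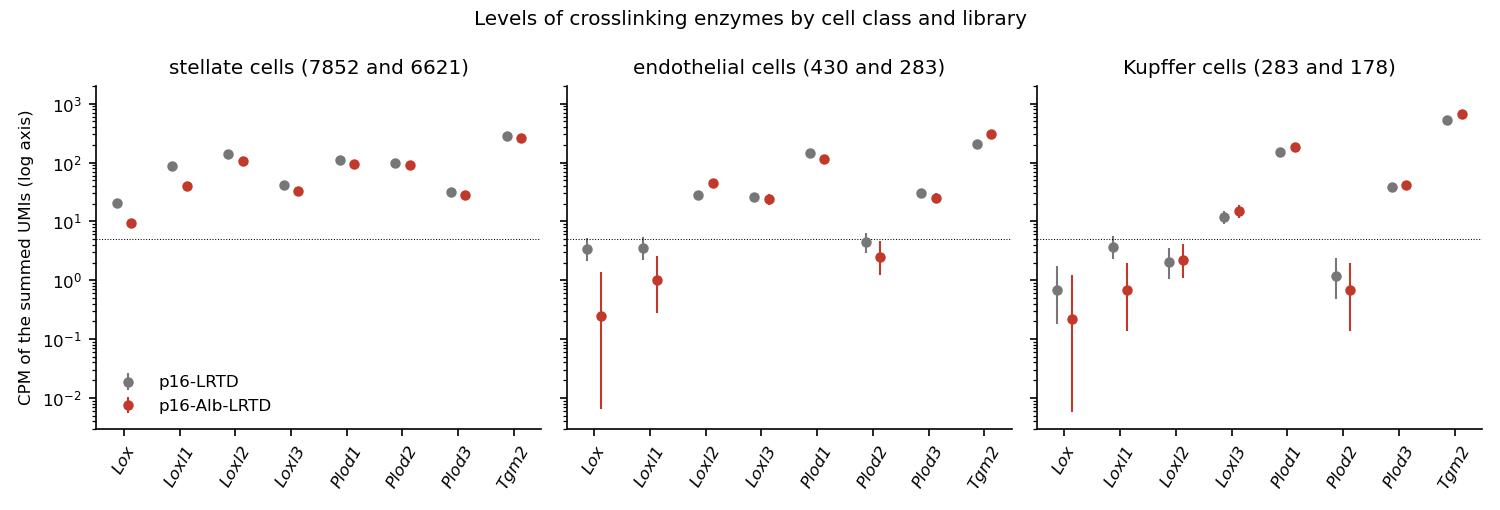
Level of each member (CPM of the UMIs summed over a class, log axis) in stellate, endothelial and Kupffer cells, grey for p16-LRTD and red for p16-Alb-LRTD, with 95% counting intervals as bars and 5 CPM as the dotted line. Lox falls under the line outside stellate cells, at 3.41 CPM or less, and Tgm2 lies at 205 CPM or more in every class.

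In endothelial cells, Loxl2 and Tgm2 were higher in p16-Alb-LRTD and Plod1 was lower, while Lox, Loxl1 and Plod2 were each below 5 CPM. Loxl2 was at 28.3 CPM (24.2 to 32.8) and 45.2 CPM (38.8 to 52.3), from 174 and 180 UMIs, a log2 ratio of 0.68 (0.37 to 0.99). It was the only member called, 1 higher and 0 lower of 5 that passed, and of all 9858 genes that passed in this class 6.44% were called higher and 13.5% lower. This call did not hold under all settings. The log2 ratio was 0.34 when cells that passed several gates were counted in each, 0.50 without upper limits on genes and UMIs, and 0.54 with doubled gate thresholds. Tgm2 was at 205 CPM (193 to 216) and 302 CPM (285 to 319.6), a log2 ratio of 0.56 (0.45 to 0.68), just under the fold of a call and above it with TMM scaling. The thinned shares of endothelial cells with a Tgm2 UMI were 52.6% (47.7 to 57.5) and 73.9% (68.3 to 78.9), which did not overlap, whereas those for Loxl2, 13.9% (10.7 to 17.6) and 19.1% (14.7 to 24.2), did.

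Plod1 in endothelial cells was at 148 CPM (138 to 158) and 115 CPM (105 to 126), a log2 ratio of -0.36 (-0.52 to -0.20). Its thinned shares were 54.1% (49.2 to 58.9) and 44.2% (38.3 to 50.2), with overlapping intervals. The intervals of Loxl3 (26.5 and 23.6 CPM) and Plod3 (30.7 and 24.9 CPM) overlapped between libraries. The 5 members that passed had a median log2 ratio of -0.17, beside -0.10 for all genes of this class. Lox was counted 21 times in p16-LRTD and 1 time in p16-Alb-LRTD, a CPM ratio of 0.0736 (0.00178 to 0.457), and the 21 UMIs lay in 3 of 430 cells. Loxl1 was counted 22 and 4 times, in 11 and 4 cells, and Plod2 27 and 10 times. Col1a1, a collagen chain made by HSCs, stood at 11.0% of its stellate level in p16-LRTD endothelial cells and at 0.996% in p16-Alb-LRTD. For Col3a1 these values were 5.42% and 1.89%. All 8 further stellate markers had UMIs there in both libraries, summing to 244 and 197 CPM, and the 7 portal fibroblast markers summed to 48.4 and 21.6 CPM, with Entpd2 and Mfap4 at 0 in p16-Alb-LRTD. Their part in the endothelial counts of Lox, Loxl1 and Plod2 was not tested. The lists for monocytes (8.61 and 50.2 CPM), cholangiocytes (15.9 and 66.8 CPM) and hepatocytes (97.5 and 124 CPM) were higher in p16-Alb-LRTD endothelial cells, and their part in the Loxl2 and Tgm2 values was not tested. Of the 5 cholangiocyte markers, Krt19 and Epcam were at 0 in p16-LRTD and Krt19 and Krt7 in p16-Alb-LRTD. The monocyte marker Ly6c2 was at 0 in p16-LRTD.

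In Kupffer cells, Tgm2 and Plod1 were somewhat higher in p16-Alb-LRTD and no member was called, 0 lower and 0 higher, beside 6.83% and 5.21% of 9514 genes. Tgm2, which takes part in the uptake of dying cells by macrophages, was at 539 CPM (520.1 to 558) and 670.4 CPM (647 to 695), a log2 ratio of 0.32 (0.24 to 0.39). Plod1 was at 149.7 CPM (140.0 to 159.9) and 181 CPM (169 to 194), a log2 ratio of 0.27 (0.14 to 0.41). For Loxl3 (11.8 and 14.98 CPM) and Plod3 (37.8 and 42.3 CPM) the intervals of the ratio included 0. The 4 members that passed had a median log2 ratio of 0.30, beside -0.058 for all genes. Lox was counted 4 and 1 times, Loxl1 22 and 3 times, Loxl2 12 and 10 times and Plod2 7 and 3 times. Of these the interval of the CPM ratio excluded 1 for Loxl1 alone, at 0.181 (0.0347 to 0.603), and its UMIs lay in 11 of 283 and 3 of 178 cells. Loxl1 stood at 4.25% (2.66 to 6.43) and 1.67% (0.344 to 4.87) of its stellate level in these cells. Col1a1, at 22.4 and 6.48 CPM, stood at 1.15% and 1.29% of its stellate level. Col3a1, at 95.9 and 22.8 CPM, stood at 2.35% and 1.70%. The part of stellate RNA in the Kupffer counts was not tested. The thinned shares of Kupffer cells with a Tgm2 UMI, 85.3% (80.5 to 89.2) and 88.1% (82.4 to 92.5), overlapped. In this class the 7 sinusoidal endothelial markers, all with UMIs, summed to 560.3 and 757 CPM. The cholangiocyte list summed to 313 and 142 CPM, with Krt19, Epcam and Sox9 at 0 in both libraries. Their part in the Kupffer values was not tested.

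**Figure D2:**
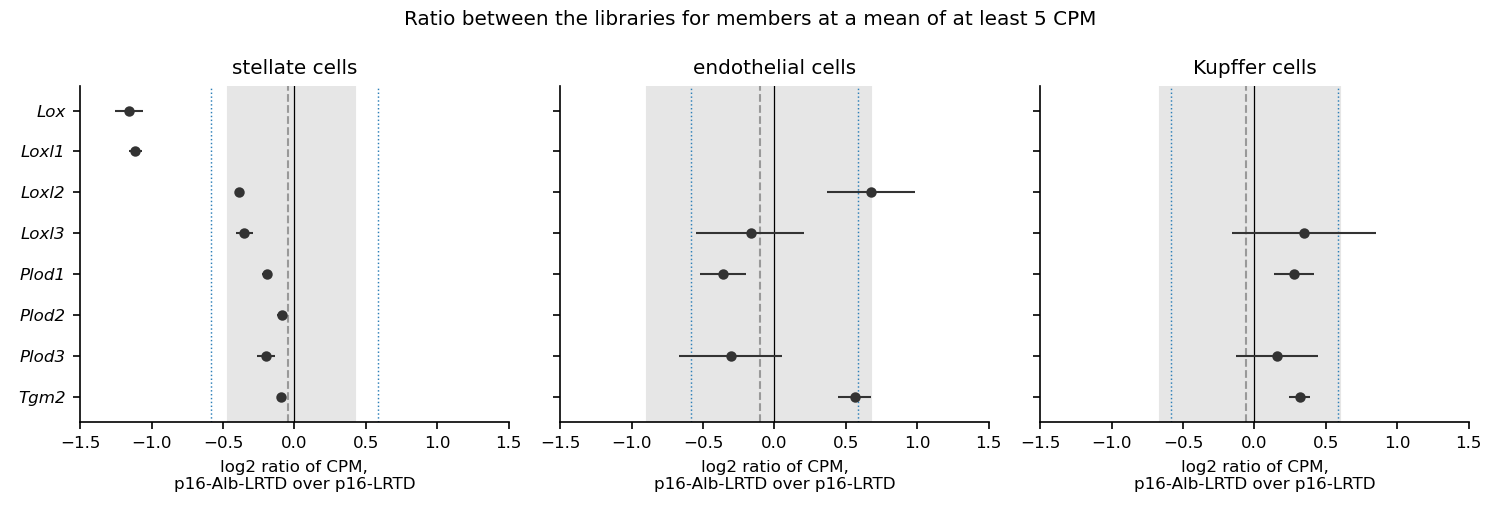
Log2 ratio of CPM, p16-Alb-LRTD over p16-LRTD, for each member at a mean of at least 5 CPM in stellate, endothelial and Kupffer cells, with 95% counting intervals. The grey band spans the 5th to 95th percentile of the ratios of all genes, the dashed line is their median and the blue dotted lines mark 1.5-fold. Lox (-1.16) and Loxl1 (-1.11) lie outside the band in stellate cells, and endothelial Loxl2 (0.68) lies past the 1.5-fold line.

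Lox, Loxl1 and Plod2 passed 5 CPM in the stellate class alone, Loxl2 in stellate and endothelial cells, and Loxl3, Plod1, Plod3 and Tgm2 in all 3 classes. Loxl2 in stellate cells was 4.97-fold (4.28 to 5.80) and 2.38-fold (2.05 to 2.77) above its endothelial level. Loxl3 was 1.59-fold (1.36 to 1.87) and 1.40-fold (1.14 to 1.74) above its endothelial level and 3.58-fold and 2.21-fold above its Kupffer level. Plod1 was higher outside stellate cells than in them, with endothelial levels at 136% and 121% and Kupffer levels at 138% and 190.5% of the stellate level. Plod3 lay at 95.7% and 88.9% in endothelial cells, with intervals that include 100%, and at 118% (103 to 134) and 151% (130.4 to 174) in Kupffer cells. Tgm2 in Kupffer cells stood at 193% and 257% of its stellate level. In endothelial cells Tgm2 was at 73.4% in p16-LRTD and 116% in p16-Alb-LRTD, so the order of these classes for Tgm2 was not the same in both libraries.

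Within stellate cells, the members were set against fibrillar collagen, their substrate. Col1a1, Col1a2 and Col3a1 together made up 8353 and 2852 CPM, and the log2 ratio of their sum was -1.55 (-1.56 to -1.55). Per 1000 collagen UMIs, every member was therefore higher in p16-Alb-LRTD, a direction that the lower collagen count sets. Lox moved from 2.47 to 3.24 and Loxl1 from 10.4 to 14.1 UMIs per 1000 collagen UMIs, log2 ratios of 0.39 (0.29 to 0.49) and 0.44 (0.39 to 0.48). Loxl2 moved from 16.8 to 37.7, Loxl3 from 5.05 to 11.6 and Plod1 from 13.003 to 33.3 UMIs per 1000. Plod2 moved from 11.7 to 32.4, Plod3 from 3.84 to 9.80 and Tgm2 from 33.4 to 91.4 UMIs per 1000. Lox and Loxl1 thus kept closest to the collagen count, and Plod2 had the largest ratio, 2.76.

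Stellate cells of both libraries were then ordered together by the share of the same collagen UMIs and cut into 4 bins of equal size. The cuts lay at 14.3, 23.1 and 51.0 collagen UMIs per 10000. The top bin held 2891 p16-LRTD cells (36.8%) and 728 p16-Alb-LRTD cells (11.0%). In p16-LRTD this bin held 94.6% of all Lox UMIs and 85.8% of Loxl1 UMIs, against 42.9% of all UMIs of the class. In p16-Alb-LRTD it held 45.0% and 41.4%, against 11.3%. Lox levels in p16-LRTD were 0.651, 1.18, 3.75 and 45.5 CPM from the lowest to the highest bin, and in p16-Alb-LRTD 1.79, 4.45, 10.9 and 36.6 CPM. Lox was therefore higher in p16-Alb-LRTD in the lower 3 bins, with intervals of the log2 ratio above 0, and lower in the top bin alone, by -0.31 (-0.45 to -0.18). Loxl1 levels were 8.66, 14.0, 39.6 and 174 CPM in p16-LRTD and 10.0, 19.2, 50.4 and 147 CPM in p16-Alb-LRTD. Its log2 ratio was 0.46 (0.27 to 0.64) in the second bin and -0.25 (-0.32 to -0.18) in the top bin. Within bins, then, neither gene was lower by as much as over the whole class. The bins are defined by genes that themselves differed between the libraries, so that a bin need not hold the same cells in both.

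Among the hydroxylases Plod2 rose most along the collagen order, at 46.8, 58.0, 82.3 and 144 CPM in p16-LRTD and 65.0, 84.1, 111 and 135 CPM in p16-Alb-LRTD. It was higher in p16-Alb-LRTD in the lower 3 bins, by log2 ratios of 0.47, 0.53 and 0.44, and lower in the top bin, by -0.094 (-0.17 to -0.023). The top bin stood above the bottom bin by 20.1-fold and 14.6-fold for Loxl1 and 3.08-fold and 2.08-fold for Plod2. No such fold is given for Lox, since its bottom bin in p16-LRTD, 0.651 CPM (0.379 to 1.04) from 17 UMIs, was near its level of 0.673 CPM in Kupffer cells. For Loxl2 these folds were 1.95 and 1.45, for Plod1 1.41 and 1.01 and for Tgm2 1.34 and 1.18. Loxl3 (0.958 and 1.17) and Plod3 (1.04 and 0.962) were nearly level along the order.

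**Figure D3:**
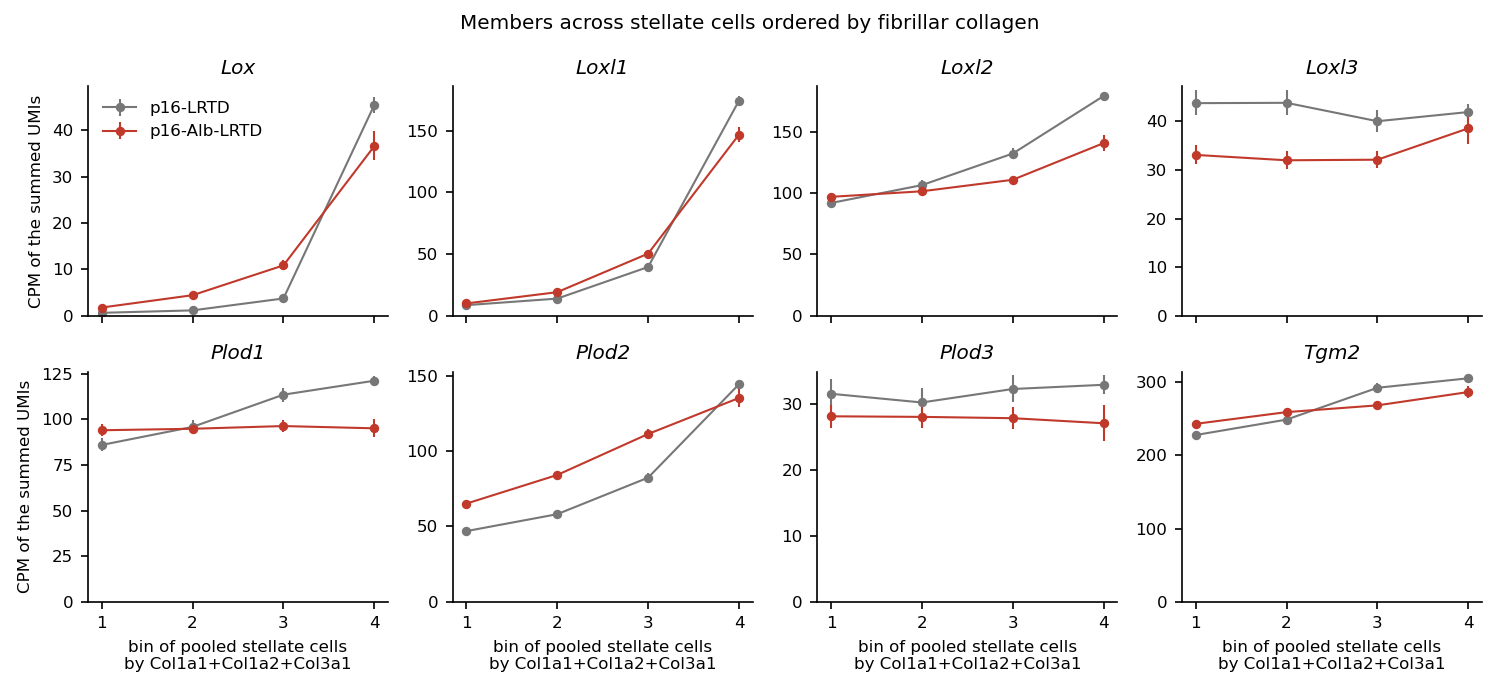
Level of each member (CPM of the summed UMIs, linear axis from 0) in 4 equal bins of the pooled stellate cells ordered by Col1a1+Col1a2+Col3a1, grey for p16-LRTD and red for p16-Alb-LRTD, with 95% counting intervals. Lox and Loxl1 climb to 45.5 and 174 CPM in the top bin of p16-LRTD, Plod2 rises in steps, and Loxl3 and Plod3 stay flat.

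A second order used Alcam and Svep1, which did not enter the collagen sum but were chosen with earlier results of these libraries known. Alcam was among the genes that varied most like Loxl1 (Pearson r of 0.57 and 0.48) and Lox (0.45 and 0.25) across stellate cells. More cells had no UMI of this pair than had one, so the lower 3 bins fell together, and the top bin, above 1.61 UMIs per 10000, held 1759 cells (22.4%) and 1860 cells (28.1%). This top bin held 70.4% and 60.5% of Lox UMIs. Lox was at 56.7 and 19.8 CPM there, a log2 ratio of -1.52 (-1.64 to -1.39), and at 8.21 and 5.09 CPM in the lower bin, a log2 ratio of -0.69 (-0.86 to -0.52). Loxl1 was lower by similar log2 ratios in both, -1.14 (-1.20 to -1.08) from 200.4 to 91.0 CPM and -1.24 (-1.32 to -1.17) from 48.0 to 20.3 CPM. Loxl2 differed more in the top bin, at -0.68 (-0.74 to -0.62), than in the lower bin, at -0.28 (-0.32 to -0.24). Plod2 was at 144 and 118 CPM in the top bin, a log2 ratio of -0.29 (-0.35 to -0.23), and at 82.0 and 82.4 CPM in the lower bin. Lox and Loxl1 were lower in p16-Alb-LRTD in both bins. With the bins given equal shares in both libraries, the log2 ratio over the class was -1.32 for Lox and -1.26 for Loxl1. As with the collagen bins, a bin need not hold the same cells in both libraries.

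Smaller groups of stellate cells, in each case the 25% with the highest share of a marker sum, were chosen with earlier results of these libraries known. In the group highest for Grid1, Inmt and Sdk2, with 1340 and 2278 cells, Lox was at 38.0 and 13.7 CPM, a log2 ratio of -1.47 (-1.62 to -1.32), and Loxl1 at 172 and 64.9 CPM. In the group highest for Galnt14, Hhip and Cdh18, with 1942 and 1676 cells, Lox was low and its interval included 0, at 3.07 and 3.39 CPM with a log2 ratio of 0.14 (-0.25 to 0.54), while Loxl1 was at 29.8 and 16.2 CPM. In the group highest for Notch3 and Clstn2, with 2623 and 995 cells, Lox was at 6.64 and 5.03 CPM, a log2 ratio of -0.40 (-0.75 to -0.061). Loxl1 had a log2 ratio of -0.44 (-0.60 to -0.28) in this group, and Loxl3, at 48.6 and 40.3 CPM, stood above its level in the remaining stellate cells by 0.30 and 0.34 on the log2 scale. In the group highest for Tgfbi, Fcna and G0s2, with 1154 and 2464 cells, Lox was at 5.66 and 4.99 CPM, with an interval of the log2 ratio that included 0, and Loxl1 had a log2 ratio of -1.07 (-1.20 to -0.93). The interval of Loxl1 lay below 0 in all 4 groups, and that of Lox in 2 of them. In the group highest for Notch3 and Clstn2 other members were higher in p16-Alb-LRTD, with log2 ratios of 0.10 (0.028 to 0.17) for Loxl2, 0.16 (0.079 to 0.24) for Plod1, 0.14 (0.045 to 0.24) for Plod2 and 0.15 (0.097 to 0.19) for Tgm2. The groups took different shares of the libraries, so that a group need not hold the same cells in both.

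Across single stellate cells, the genes whose normalised UMI share varied most like that of a member were found among 3458 genes at 50 CPM or more, by Pearson r over the 7852 and 6621 cells of the libraries. The cells of a library share its preparation and differ in depth, so these r values are descriptions. For Lox the leading genes were Col1a1 (0.54 and 0.33), Col3a1 (0.53 and 0.31) and Col1a2 (0.56 and 0.29). For Loxl1 they were Col1a1 (0.70 and 0.52), Alcam (0.57 and 0.48) and Emp1 (0.56 and 0.46). For Plod2 they were Col3a1 (0.44 and 0.24), Adamtsl2 (0.38 and 0.24) and Col6a3 (0.41 and 0.24), and for Loxl2 Sparc alone reached 0.20 in both libraries (0.30 and 0.29). No gene did for Loxl3, Plod1, Plod3 or Tgm2. Of the 28 pairs of members, Lox with Loxl1 (0.48 and 0.29) was the 1 pair to reach 0.20 in both libraries, and Loxl1 with Plod2 (0.35) and Lox with Plod2 (0.30) did so in p16-LRTD.

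The genes around the members were described by role, with the 3 that differed most in stellate cells named per list. The fibrillar collagens, the substrates, were lower in p16-Alb-LRTD for all 6 genes that passed among 7, of which 5 were called, with a median log2 ratio of -1.38. The gene not called, Col5a1, had a log2 ratio of -0.58 (-0.60 to -0.56). Col1a1 was at 1950.2 and 504 CPM, Col3a1 at 4085 and 1343 CPM, and the minor chain Col5a3 at 16.02 and 5.43 CPM. Lox (-1.16) and Loxl1 (-1.11) lay nearer to this median than any of the other members did. Of the elastic fibre genes, 2 of 10 that passed among 13 were called lower, with a median of -0.15. These were Ltbp2, at 15.4 and 7.22 CPM, and Mfap2, at 21.7 and 13.7 CPM, while the fibrillin Fbn1, at 240.3 and 178 CPM, was not called. Elastin itself (Eln) was higher in p16-Alb-LRTD and not called, at 54.7 and 64.7 CPM, a log2 ratio of 0.24 (0.20 to 0.29).

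Among proteases and scaffolds that bring lysyl oxidases to activity, 3 of 12 that passed among 13 were called lower and 0 higher, with a median of -0.40. Fmod, a collagen-binding proteoglycan that binds Lox, was at 8.71 and 2.58 CPM. Postn, a scaffold for the protease that activates Lox, was at 397 and 211 CPM, and Fn1, fibronectin, at 921 and 609 CPM. None of 12 partners of lysyl hydroxylation and collagen glycosylation that passed among 14 was called. Their median was -0.34, with the galactosyltransferase Colgalt1 at 147 and 102 CPM, the cyclophilin Ppib at 590.5 and 442 CPM, and Fkbp10, a chaperone known to support Plod2, at 42.4 and 31.8 CPM. The other 9 genes of this list that passed ranged from -0.36 for P3h4 to 0.24 for P4ha2, a subunit of the prolyl 4-hydroxylase.

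No gene was called among the 4 of 5 that supply copper or ascorbate, the 2 of 6 other crosslinking enzymes or the 5 of 5 Tgm2 partners that passed, with medians of -0.090, -0.24 and -0.17. The copper pump Atp7a was at 79.9 and 66.4 CPM, the copper chaperone Atox1 at 185 and 162 CPM, and the ascorbate transporter Slc23a2 at 45.9 and 46.9 CPM. Loxl4, the remaining lysyl oxidase, was at 13.3 and 9.30 CPM, a log2 ratio of -0.52 (-0.63 to -0.42), and peroxidasin (Pxdn), which crosslinks collagen IV, at 166 and 169.7 CPM. Of the Tgm2 partners, Mfge8 was at 446 and 363 CPM, Itgb3 at 168 and 146 CPM and Itgb1 at 881 and 781 CPM.

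Hypoxia, which induces Lox, Loxl2 and Plod2, was represented by 12 genes, of which 9 passed, 1 was called lower and 2 higher, with a median of -0.17. Ddit4 was at 9.92 and 23.7 CPM, Adm at 101 and 164 CPM, and Vegfa at 9.57 and 4.56 CPM. Of 9 TGF-beta responsive genes that passed among 10, 1 was called in each direction, with a median of 0.10. Acta2, smooth muscle actin, was at 46.3 and 12.98 CPM, Ccn2 at 335 and 734 CPM, and Tgfb1i1 at 66.3 and 44.9 CPM. Of 4 retinoic acid genes that passed among 7, Dhrs3 was called higher, at 119 and 198 CPM, with a median of -0.13, while Rdh10 was at 29.7 and 26.4 CPM.

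Other lists differed more between the libraries. Of 7 glucocorticoid responsive genes, 5 were called higher in p16-Alb-LRTD, with a median of 0.92. Zbtb16 was at 59.5 and 647 CPM, Fkbp5 at 64.3 and 256 CPM and Per1 at 20.8 and 49.3 CPM. Of 12 dissociation stress genes, 8 were called higher, with a median of 0.75, among them Hspa1b at 4.63 and 15.3 CPM, Hsph1 at 20.6 and 63.9 CPM and Nr4a1 at 43.7 and 117 CPM. All 6 cell division genes that passed among 7 were lower, with a median of -2.92, Ube2c at 22.3 and 1.10 CPM, Cenpf at 20.1 and 1.63 CPM and Top2a at 25.8 and 3.33 CPM. The 7 portal fibroblast markers, all with UMIs, summed to 89.7 and 46.8 CPM in stellate cells. The part of stress, glucocorticoid response and portal fibroblasts in the member ratios was not tested. Without cells that held a UMI of the division list, the log2 ratio was -1.14 for Lox, -1.08 for Loxl1, -0.32 for Loxl2, -0.15 for Plod1 and -0.013 for Plod2.

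**Figure D4:**
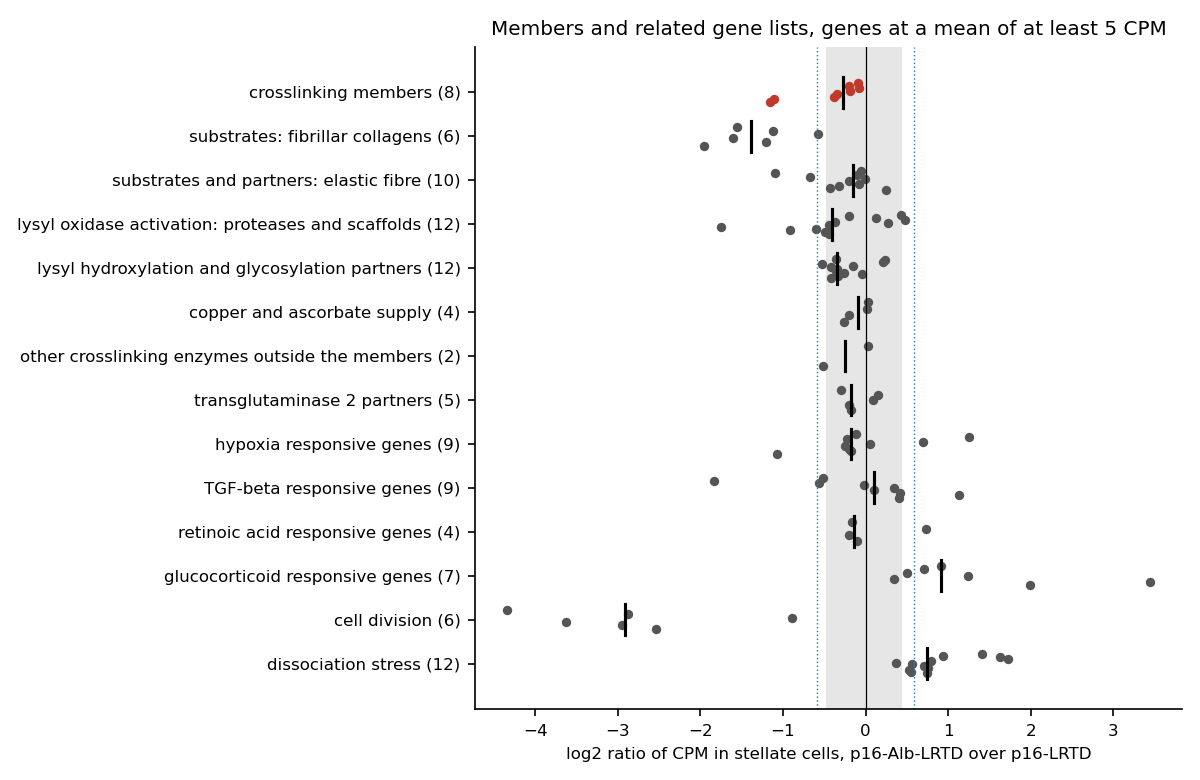
Log2 ratio of CPM in stellate cells, p16-Alb-LRTD over p16-LRTD, for the 8 members (red) and the genes of 13 lists (grey) at a mean of at least 5 CPM, with the number of genes in brackets, list medians as black ticks, the 5th to 95th percentile of all genes as the grey band and 1.5-fold as blue dotted lines. The members' median is -0.28, the fibrillar collagens lie at -1.38 and cell division at -2.92.

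In endothelial cells 4 of the 8 hypoxia genes that passed were called higher, with a median of 0.67. These were Vegfa at 7.80 and 15.1 CPM, Bnip3 at 10.2 and 19.1 CPM, Ndrg1 at 139 and 259 CPM and Ddit4 at 11.4 and 32.1 CPM. Among the hydroxylation partners P3h2, a prolyl 3-hydroxylase, was at 19.0 and 73.6 CPM and Colgalt1 at 136 and 87.9 CPM. Among the Tgm2 partners Itgb3 was at 58.7 and 95.9 CPM and Lrp1 at 15.1 and 9.29 CPM. In Kupffer cells the Tgm2 partners Sdc4, at 33.5 and 93.7 CPM, and Mfge8, at 12.1 and 6.26 CPM, were called in opposite directions. Glucocorticoid genes were called higher in both classes, 6 of 7 in endothelial and 5 of 7 in Kupffer cells, and so were 11 and 7 of 12 stress genes. All fibrillar collagens that passed were called lower, 5 of 5 in endothelial cells (median -3.13) and 4 of 4 in Kupffer cells (median -1.68). Cell division genes were called lower in 3 of 3 (median -2.89) and 4 of 5. In endothelial cells 4 of 8 genes that bring lysyl oxidases to activity were called lower and 1 higher. Of the TGF-beta responsive genes there, 3 of 7 were called lower and 0 higher. The part of all these lists in the Loxl2, Plod1 and Tgm2 values of these classes was not tested.

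**Figure D5:**
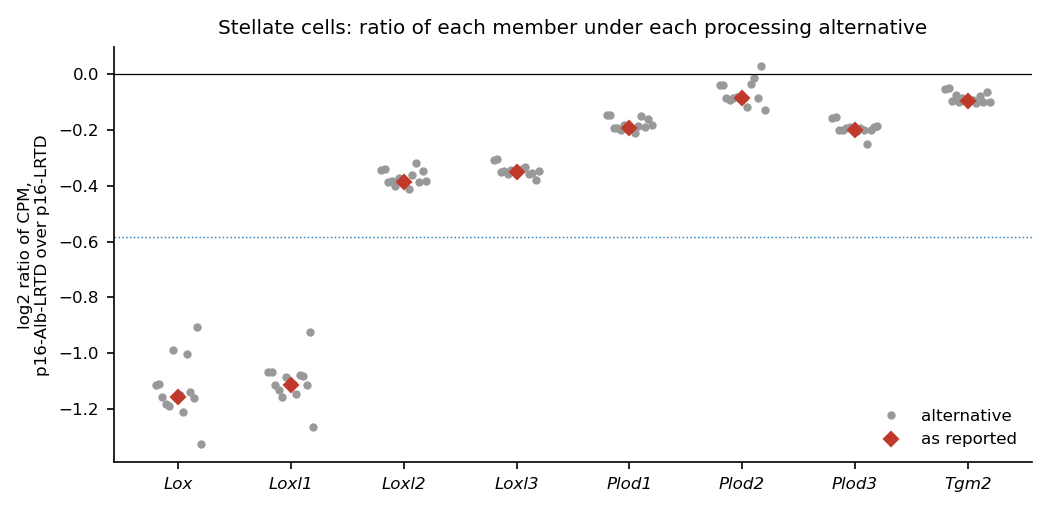
Log2 ratio of each member in stellate cells, p16-Alb-LRTD over p16-LRTD, as reported (red diamonds) and under each of 14 processing alternatives (grey dots). Lox stays between -1.32 and -0.91 and Loxl1 between -1.26 and -0.93, while Plod2 runs from -0.13 to 0.030.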

How the data were processed

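Single-cell RNA was measured with the 10x 3′ v3.1 kit in 2 libraries, 1 per genotype. The authors deposited unnormalised counts of UMIs for every gene in every barcode, from Cell Ranger 7.0.1 and mm10. Whether intronic or antisense reads were counted is not given in the sources used here. The per-cell filters of the study were applied, which keep cells with 2000 to 7000 genes, at most 50000 UMIs and a mitochondrial share of at most 5%. Its later removal of clusters with few genes was not applied, since cells were gated and not clustered. No doublet caller was run, and the upper limits and the removal of cells that passed several gates stand in its place. Classes required 15 gate UMIs per 10000 (stellate) or 8 (endothelial, Kupffer).

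Deposited counts were summed per class and library in Python 3.11.15 (numpy 2.4.6, scipy 1.17.1, pandas 2.3.3) and given as CPM of the sum. Levels have exact Poisson intervals, ratios exact conditional intervals and shares Clopper-Pearson intervals, all at 95%. Only the ratio intervals were run on simulated data. Those data were drawn from the Poisson model that the intervals assume, so the run could not show a fault of the model. No significance test could be made. Shares used cells thinned to 5000 UMIs, which left out 16 and 7 stellate, 12 and 0 endothelial and 5 and 1 Kupffer cells of p16-LRTD and p16-Alb-LRTD. A share of 0 is given with the upper limit of its Clopper-Pearson interval. Collagen is the sum of Col1a1, Col1a2 and Col3a1. TMM factors came from edgeR 4.0.16 in R 4.3.3 on the summed counts.

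All members are reported, and from each of 13 lists the 3 genes with the largest absolute log2 ratio in stellate cells at a mean of at least 5 CPM, with any gene behind a count of 5 or fewer that is discussed. A few further genes of the lists, such as Eln, are named as well. Genes like a member needed r of at least 0.2 in both libraries. The members, lists and subsets were chosen with earlier results of these data known. Ccn2 was matched by identifier. Coordinates and sequences came from GENCODE vM21 (GRCm38), to which 30934 of 31054 features matched by identifier. A comparison of the protein sequences, the sequence and position of Lox, and 1 gene of the retinoic acid list are not reported here.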

Additional observations from a re-analysis of the deposited data

Results flagged for a closer look

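In 3 members the log2 ratio of p16-Alb-LRTD over p16-LRTD had opposite signs between cell classes, with counting intervals on opposite sides of 0. The difference between classes was not tested, since each genotype had 1 library. Loxl2 had a log2 ratio of -0.39 in stellate cells and 0.68 in endothelial cells. The endothelial ratio was 0.34 when cells that passed several gates were counted in each. Tgm2 had -0.096 in stellate cells and 0.56 in endothelial cells, and its ratio in Kupffer cells was 0.32. Plod1 had -0.19 in stellate cells and -0.36 in endothelial cells against 0.27 in Kupffer cells, and the Kupffer value was 0.11 in cells with 10000 to 30000 UMIs.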

How the results depend on the processing

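No paired analysis was possible because there was only 1 library per genotype, and likewise no replicate could be left out. Of 302 log2 ratios recomputed for the 8 members in 3 classes, 28 moved beyond their counting interval, and no called member changed sign. Among members not called, the sign changed in 3 alternatives each for Loxl2 in Kupffer cells and Plod2 in endothelial cells. It changed in 1 alternative each for Plod2 in stellate cells and for Plod2 and Plod3 in Kupffer cells. In stellate cells Lox ran from -1.32 with equal shares of the Alcam and Svep1 bins to -0.91 as a mean of per-cell CPM, Loxl1 from -1.26 to -0.93, Loxl2 from -0.41 to -0.32 and Tgm2 from -0.10 to -0.050. The count of 2 members called lower was 4 with a smaller fold and was otherwise within 1.5 times. The endothelial count of 1 called higher was 2 with TMM scaling, median-of-ratios scaling, a smaller fold, a mitochondrial limit of 10%, cells without a division UMI or a mean of per-cell CPM. It was 0 with a fold of 2, cells of several gates counted in each, doubled gate thresholds or no upper limits. Endothelial members called lower, 0 as reported, were 3 with no minimum level, 1 with a smaller fold and 1 with cells of several gates. Kupffer members called lower, also 0, were 3 with no minimum and 3 with cells of several gates, where Loxl2 had a log2 ratio of -1.75, and 1 was called higher with a smaller fold. The causes were not tested. The Lox share of stellate cells was 4.30% and 2.48% when thinned to 3000 UMIs and 17.6% and 11.7% without thinning. Removing barcodes present in both libraries, chosen after seeing the data, moved no count beyond 1.5 times. The number of counts limits the endothelial and Kupffer values of Lox, Loxl1 and Plod2, which rest on 1 to 27 UMIs.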
